A study of Mus musculus with 12 samples.

Results

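The 34 genes described here make cholesterol and fatty acids or control that synthesis. They were taken by symbol, after Ensembl identifiers without their version were matched to GENCODE M21, and the rule used no measured value. The genes were, however, chosen with earlier results of these data known. Their counts beside the shares of all tested genes are therefore descriptions. All 34 were found among the 52654 genes complete in every library, and all 34 were among the 13340 genes that passed edgeR's low-count filter and were tested. The sterol branch has 24 genes: 18 enzymes, the sterol carrier Stard4 and 5 genes that control sterol regulatory element-binding proteins (SREBPs). The fatty acid branch has 10 genes, from the supply of acetyl-CoA to desaturation and elongation.

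The RNA came from MC3T3-E1 Subclone 14, a clonal line of mouse calvaria preosteoblasts, on day 7 of culture in osteogenic medium, which held β-glycerophosphate at 7 mM and L-ascorbic acid at 5 µg/mL. There were 4 groups of 3 libraries, which the series design text calls biological triplicates: co-culture on titanium discs with nanotopography, co-culture on control titanium, isolated cells on nanotopography and isolated cells on control titanium. In co-culture, osteoclasts derived with 50 ng/mL RANKL from RAW 264.7, a mouse macrophage line, stood above the osteoblasts on an insert whose pores measured 0.4 µm, for the last 2 days after 5 days apart. Isolated cells are recorded with neither insert nor RANKL, so effects of osteoclasts, RANKL and the insert cannot be told apart.

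Cells build cholesterol from acetyl-CoA through mevalonate, isoprenoids, squalene and lanosterol, and build fatty acids from the same acetyl-CoA through malonyl-CoA. Both branches are driven by SREBPs, membrane-bound transcription factors: when sterols run low, Scap escorts them out of the endoplasmic reticulum to be cut and released, and when sterols are plentiful, Insig proteins hold them back. Isoprenoids of the same pathway are attached to small GTPases, and in bone the pathway is best known as the target of nitrogen-containing bisphosphonates, which block Fdps in osteoclasts.

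Each library held 5866842 to 9207831 counts over the genes used. The 8 osteoblast markers summed to 44625 to 56585 CPM (counts scaled to library total) in co-culture on nanotopography and to 74724 to 86713 CPM in co-culture on control titanium. Isolated cells had sums of 86152 to 91017 CPM on nanotopography and of 84260 to 97528 CPM on control titanium, so the labelled lineage was seen in every library. Col1a1 and Col1a2 made up most of these sums, at group means of 23630 and 17770 CPM in co-culture on nanotopography. On each surface 7 of the 8 had a lower mean in co-culture and 1 a higher one, Runx2 on nanotopography and Alpl on control titanium. The 20 markers of macrophages and osteoclasts summed to 188 to 268 CPM in co-culture on nanotopography, 195 to 208 CPM in co-culture on control titanium, 182 to 203 CPM in isolated cells on nanotopography and 193 to 202 CPM in isolated cells on control titanium. Most of that sum was Ctsk, at group means of 184.5, 170.5, 163.6 and 171 CPM in the same order. Without Ctsk the other 19 summed to 30.0, 67.1 and 73.5 CPM in the 3 libraries of co-culture on nanotopography, 24.9 to 33.7 CPM in co-culture on control titanium, 23.8 to 33.4 CPM in isolated cells on nanotopography and 25.5 to 26.6 CPM in isolated cells on control titanium. On nanotopography 18 of the 20 markers had a higher mean in co-culture and 1 a lower one, and on control titanium 12 and 5. Of the 8 markers that could be tested, 5 rose and 1 fell in co-culture on nanotopography (7 and 0 GC-adjusted), and 0 were called on control titanium. Among all tested genes, 28.7% were called higher and 30.4% lower on nanotopography (18.8% and 21.2% GC-adjusted). On control titanium those shares were 10.9% and 8.72%. Clec5a, Atp6v0d2 and Ptprc had 114, 73 and 44 counts over co-culture on nanotopography, 5, 7 and 2 over co-culture on control titanium and 0 in every isolated library, and Calcr had 0 counts in every library. Of 9 fat cell markers 5 were at 0 counts in every library, Adipoq among them. Plin4 had 39 counts in co-culture on nanotopography and 66 in co-culture on control titanium, against 3 and 9 in isolated cells on the same surfaces, and Cebpa had 42 and 67, against 202 and 205. Plin4 was called higher and Cebpa lower on both surfaces. The part of these marker differences in the results below was not tested. In these bulk samples fewer cells of a type and less RNA per cell cannot be told apart.

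SREBPs bind sterol regulatory elements in promoters, usually together with NF-Y, a general factor that binds CCAAT. RefSeq promoters (build GRCm38.p6, 250 bases before to 50 after a transcript's start) were at hand for 27 of the 34 genes, 20 of the sterol branch and 7 of the fatty acid branch; those of Fdps, Fdft1, Sqle, Stard4, Scd1, Scd2 and Fads1 were not used. Both strands were searched for TCACNCCAC, the core of a sterol regulatory element, for CCAAT and for TCACGTGA, an E-box form that SREBP-1 binds. The promoters of 3 sterol enzymes that fell in co-culture on control titanium are shown. The promoter of Hmgcs1 was chosen because it holds TCACNCCAC. The promoters of Cyp51 and Mvk were chosen by the lowest p of that comparison among sterol enzymes with a promoter at hand. They run 5′ to 3′ on the gene's strand, and capitals mark each match on either strand, so that ATTGG is CCAAT on the other strand.
Hmgcs1 (chr13:119690101-119690400, plus strand): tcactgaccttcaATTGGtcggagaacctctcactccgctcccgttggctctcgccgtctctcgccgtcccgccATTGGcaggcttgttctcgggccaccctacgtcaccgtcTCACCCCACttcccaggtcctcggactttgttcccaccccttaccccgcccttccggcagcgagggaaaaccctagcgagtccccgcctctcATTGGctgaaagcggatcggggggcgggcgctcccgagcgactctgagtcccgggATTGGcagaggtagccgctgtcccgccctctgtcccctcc
Mvk (chr5:114444019-114444318, plus strand): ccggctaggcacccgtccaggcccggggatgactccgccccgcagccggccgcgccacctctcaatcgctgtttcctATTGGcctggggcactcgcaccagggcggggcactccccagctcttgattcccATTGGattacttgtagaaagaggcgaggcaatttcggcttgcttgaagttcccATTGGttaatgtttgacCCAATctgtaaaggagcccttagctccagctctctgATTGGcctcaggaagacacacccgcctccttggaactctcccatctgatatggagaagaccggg
Cyp51 (chr5:4104648-4104947, minus strand): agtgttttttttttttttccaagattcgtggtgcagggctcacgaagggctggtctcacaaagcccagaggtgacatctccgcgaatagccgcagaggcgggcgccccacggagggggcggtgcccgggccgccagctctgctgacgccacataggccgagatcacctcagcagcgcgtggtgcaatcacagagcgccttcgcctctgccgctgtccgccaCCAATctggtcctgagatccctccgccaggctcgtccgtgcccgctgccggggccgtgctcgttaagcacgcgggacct

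The Hmgcs1 promoter holds the only TCACNCCAC among the 35 promoters of these genes, with 4 CCAAT matches, and no 2 matches overlap. The Mvk promoter holds 5 CCAAT matches and the Cyp51 promoter 1. CCAAT was present in at least 1 promoter of 18 of the 20 sterol genes (90%) and of 4 of the 7 fatty acid genes (57.1%), against 41.1% of the 27025 genes in the table. Counted per promoter, it was in 67.9% of 28 sterol promoters and 57.1% of 7 fatty acid promoters, against 37.4% of all 32851. TCACNCCAC was in 1.24% of all promoters. TCACGTGA was in 0 of the 27 genes, against 1.12% of all genes. These matches describe letters in a short window, not binding.

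The levels of the 34 genes in isolated cells on control titanium spanned a wide range per length. The highest per kilobase of the longest transcript were the stearoyl-CoA desaturases, which make monounsaturated fatty acids: Scd2 with 300.8 CPM per kilobase and Scd1 with 123 CPM per kilobase. The highest sterol gene was Cyp51, the lanosterol demethylase, with 71.0 CPM per kilobase, followed by Msmo1, a sterol methyl oxidase, with 55.9, Ebp, a sterol isomerase, with 49.8 and Hmgcs1, which makes HMG-CoA, with 49.4 CPM per kilobase. The lowest were Fdps, which makes farnesyl diphosphate, with 3.12, Idi1, which isomerises isopentenyl diphosphate, with 2.11 and Tm7sf2, a sterol reductase, with 1.55 CPM per kilobase. Srebf2, which encodes the SREBP chiefly tied to sterol genes, had 36.2 CPM per kilobase, and Srebf1, chiefly tied to fatty acid genes, had 6.83. The exons of some genes overlap others in the annotation, and the counting rule and strand setting are not given in the sources used here. The largest overlaps on the same strand were 26.7% of Fdps exons with Gm43738 and 12.1% of Tm7sf2 exons with Vps51. On the other strand they were 18.3% of Fdft1 exons with Ctsb, 13.2% of Scap exons with 5830462I19Rik and 12.1% of Hmgcs1 exons with Gm48342. The counts of these genes are therefore uncertain.

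The first comparison asks how osteoblasts on control titanium differ after 2 days with osteoclasts. Sterol synthesis genes were lower: of the 24 sterol genes, 11 fell, 0 rose and 13 were not called, and the median log2 fold change was -0.32. Among all tested genes, 8.72% were called lower and 10.9% higher (edgeR quasi-likelihood test, Benjamini-Hochberg adjusted p below 0.05), with a median of -0.02. The calls lay mostly in the enzymes, where 9 of 18 fell with a median of -0.44. In the fatty acid branch 3 of 10 genes fell, 0 rose and the median was -0.22. With each library's trend on GC content and transcript length removed (GC-adjusted), 12 sterol genes fell, 1 rose and 6 fatty acid genes fell, against 12% lower and 15.1% higher among all tested genes. The sterol gene that rose GC-adjusted was Srebf1, at 0.40 (adjusted p = 0.00913). All 3 co-culture libraries lay below all 3 isolated ones in 12 sterol and 5 fatty acid genes, against 17.3% of all tested genes.

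The mean level of the 18 sterol enzymes in each library shows the size of the shift. On the log2 scale, relative to isolated cells on control titanium, the 3 libraries of co-culture on nanotopography stood at -0.62, -0.48 and -0.56. Those of co-culture on control titanium stood at -0.45, -0.43 and -0.26. Both co-culture groups lay below every isolated library: the isolated cells stood at 0.16, 0.12 and 0.21 on nanotopography and at -0.06, 0.00 and 0.06 on control titanium. The 10 fatty acid genes were on average nearer to 0 in co-culture, and that difference between the branches was not tested. They stood at -0.41, -0.32 and -0.34 in co-culture on nanotopography and at -0.22, -0.31 and -0.19 in co-culture on control titanium. Isolated libraries stood at 0.18, 0.07 and 0.18 on nanotopography and at -0.05, -0.02 and 0.07 on control titanium.

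**Figure D1:**
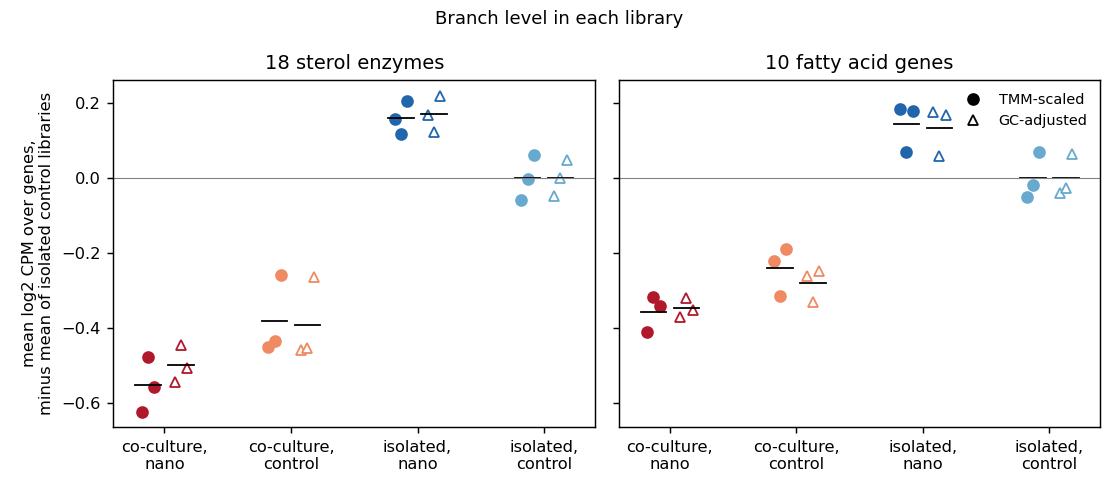
Mean log2 CPM of the 18 sterol enzymes (left) and the 10 fatty acid genes (right) in each of the 12 libraries, minus the mean of the isolated libraries on control titanium. Circles are TMM-scaled values, triangles are GC-adjusted values, freed of each library's trend on GC content and transcript length, and bars are means of 3 libraries. All 6 co-culture libraries lie below all 6 isolated libraries in both panels.

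Early enzymes of the sterol branch fell on control titanium. Acat2, the cytosolic thiolase that joins acetyl-CoA units, had 11, 11.5 and 8.44 CPM in co-culture and 13.7, 15.7 and 18 CPM in isolated cells, a log2 fold change of -0.60 ± 0.16 (SE, edgeR adjusted p = 0.0121). Hmgcs1 had 120, 107 and 115 CPM in co-culture, against 190, 172 and 151 CPM in isolated cells (log2 fold change -0.59 ± 0.14, edgeR adjusted p = 0.00572). Mvk, mevalonate kinase, had 14.7, 12.4 and 13 CPM in co-culture, against 20.7, 23.7 and 25.7 CPM in isolated cells (-0.80 ± 0.17, edgeR adjusted p = 0.00324). The groups of these 3 genes did not overlap. The next kinase, Pmvk, and the decarboxylase, Mvd, were not called, with log2 fold changes of 0.16 ± 0.18 and -0.05 ± 0.21.

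The isoprenoid step had the largest log2 fold changes of the sterol branch on control titanium, in genes of low counts. Idi1 averaged 3.31 ± 1.24 CPM in co-culture and 6.39 ± 1.03 CPM in isolated cells (SD, n = 3 each), with a log2 fold change of -0.97 ± 0.27 (edgeR adjusted p = 0.0179). Fdps averaged 4.95 ± 1.78 CPM in co-culture and 9.21 ± 2.26 CPM in isolated cells, with a log2 fold change of -0.91 ± 0.25 (edgeR adjusted p = 0.0165). The libraries of Fdps overlapped, with 6.93 CPM in the highest co-culture library and 6.65 CPM in the lowest isolated one.

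From squalene on, the calls were mixed with genes that did not pass. Sqle, squalene epoxidase, an oxygen-dependent control point of the pathway, had the lowest adjusted p of the branch. It had 82.1, 70.3 and 86.8 CPM in co-culture, against 118, 120 and 127 CPM in isolated cells (log2 fold change -0.61 ± 0.10, edgeR adjusted p = 5.39e-04). Cyp51 had 205, 208 and 207 CPM in co-culture, against 292, 272 and 274 CPM in isolated cells (-0.44 ± 0.09, edgeR adjusted p = 0.00317). In both genes the groups did not overlap. Msmo1 fell by 0.44 and Nsdhl, which removes methyl groups with Msmo1, fell by 0.58 on the log2 scale (edgeR adjusted p = 0.00605 and 0.0191). Fdft1, squalene synthase, was at -0.04 ± 0.13 and Lss, lanosterol synthase, at -0.31 ± 0.13, neither called TMM-scaled, and Lss was called lower GC-adjusted, at -0.37 (edgeR adjusted p = 0.0260). The late enzymes Tm7sf2, Hsd17b7, Ebp, Sc5d and Dhcr7 were not called either, with log2 fold changes of -0.50 to 0.22.

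Among the other sterol genes, Stard4, which carries cholesterol between membranes, had 37.4, 33.5 and 31.2 CPM in co-culture, against 53.4, 52.5 and 44.8 CPM in isolated cells (log2 fold change -0.56 ± 0.12, edgeR adjusted p = 0.00382). Insig1, itself an SREBP target, fell by 0.33 on the log2 scale (edgeR adjusted p = 0.0366). The transcripts of the SREBPs and their escort did not pass: Srebf2 was at -0.15 ± 0.11, Scap at 0.11 ± 0.16 and Srebf1 at 0.42 ± 0.16 (edgeR adjusted p = 0.0785). All 3 Srebf1 libraries of co-culture, at 36.9, 40.7 and 40.1 CPM, lay above the isolated ones, at 27.4, 27.8 and 33.0 CPM.

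In the fatty acid branch the 3 genes that fell TMM-scaled belong to elongation and desaturation, and GC-adjusted 2 genes of the first steps were called too. Fads2, which starts the desaturation of essential fatty acids, had 101, 97.7 and 103 CPM in co-culture, against 144, 169 and 166 CPM in isolated cells (log2 fold change -0.67 ± 0.12, edgeR adjusted p = 8.57e-04). Elovl6, which elongates palmitate, had 23.0, 14.7 and 17.2 CPM in co-culture, against 45.5, 34.4 and 29.1 CPM in isolated cells (-0.98 ± 0.20, edgeR adjusted p = 0.00282). Scd1 had 476, 452 and 492 CPM in co-culture, against 556, 594 and 634 CPM in isolated cells (-0.33 ± 0.09, edgeR adjusted p = 0.0218). In each of these 3 genes the groups did not overlap. The genes of the first steps were not called TMM-scaled: Acly, which splits citrate to acetyl-CoA, was at -0.22 ± 0.11, Acss2, which activates acetate, at 0.15 ± 0.16, Acaca, acetyl-CoA carboxylase, at -0.23 ± 0.11 and Fasn, fatty acid synthase, at -0.11 ± 0.16. GC-adjusted, Acly was called lower at -0.29 (edgeR adjusted p = 0.00822) and Acaca at -0.30 (adjusted p = 0.0332). Scd2, Elovl5, an elongase of polyunsaturated fatty acids, and Fads1, a desaturase encoded next to Fads2, were not called TMM-scaled, with log2 fold changes of -0.22 to 0.12, and Fads1 was called lower GC-adjusted, at -0.31 (edgeR adjusted p = 0.00988).

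Hmgcs1, Mvk, Sqle, Cyp51, Msmo1, Stard4, Elovl6 and Fads2 were called on control titanium whichever of the 12 libraries was left out. Without replicate 1 or 2 of co-culture on control titanium, 7 sterol genes were called in place of 11. The replicates named next are of the control titanium groups unless another is given. The call of Acat2 was lost without co-culture replicate 3 (log2 fold change -0.47). That of Idi1 was lost without co-culture replicate 1 or 2 (-0.89 and -0.75) and without isolated replicate 1 or 2 (-0.88 and -0.93). That of Fdps was lost without co-culture replicate 1 or 2 (-0.66 and -0.84) and without isolated replicate 1 or 3 (-0.82 and -0.76). Nsdhl was not called without co-culture replicate 1 or 2 (-0.52 and -0.48) or isolated replicate 3 (-0.45). Scd1 was not called without co-culture replicate 1 or 2 (-0.32 and -0.28) or isolated replicate 2 or 3 (-0.33 and -0.26). The call of Insig1 was lost whichever of the 6 libraries compared was left out (-0.36 to -0.27) and without replicate 2 or 3 of co-culture on nanotopography (-0.31 in both). Srebf1 was called higher without isolated replicate 3 (0.52), co-culture replicate 1 on nanotopography (0.42) or isolated replicate 2 on nanotopography (0.44).

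**Figure D2:**
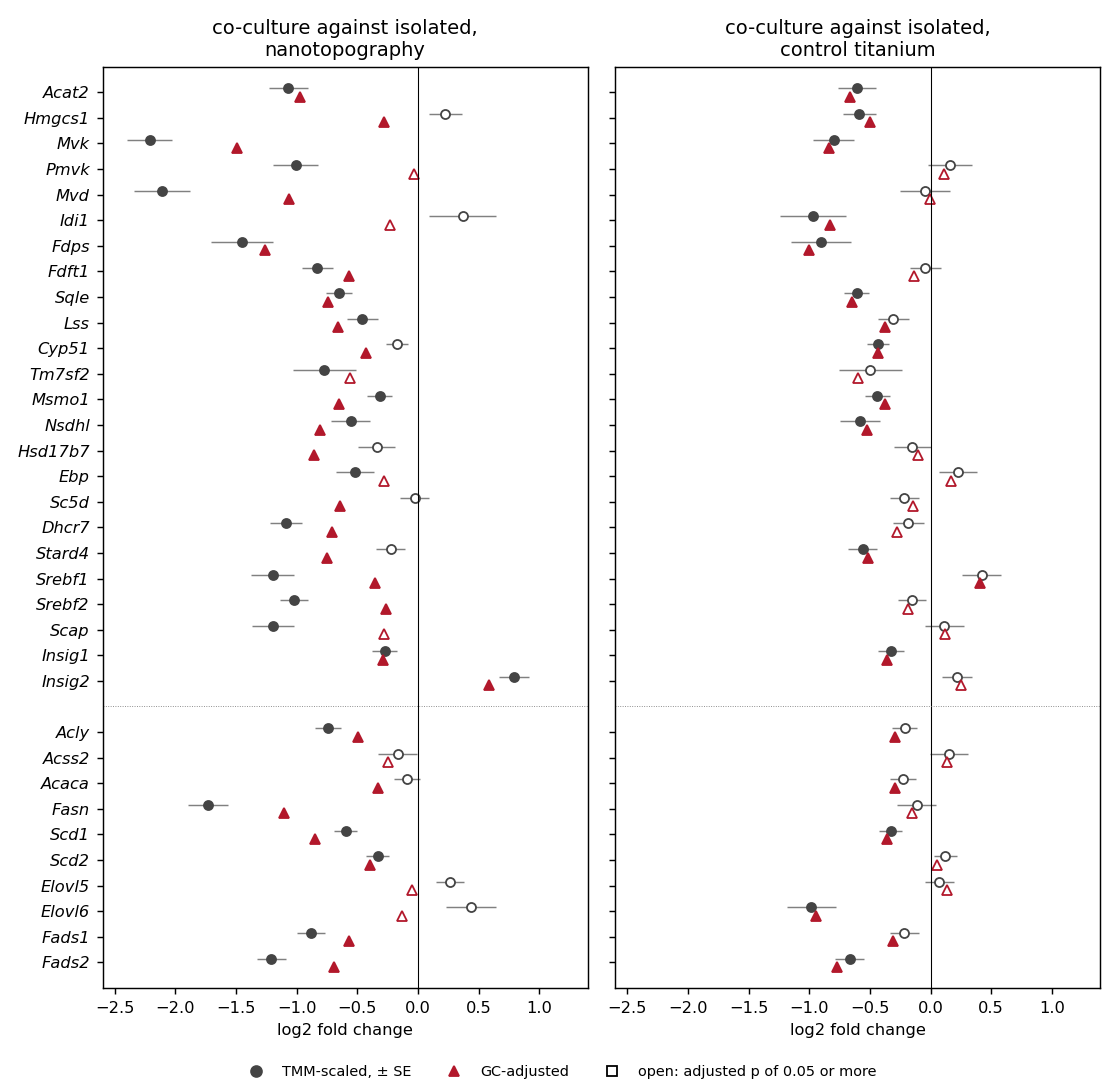
Log2 fold change of each of the 34 genes between co-culture and isolated cells, on nanotopography (left) and on control titanium (right), with 3 libraries per group. Circles with bars are TMM-scaled values ± SE, triangles are values with the trend on GC content and transcript length removed, open symbols have an adjusted p of 0.05 or more, and the dotted line divides the sterol branch from the fatty acid branch below it. Most triangles lie left of 0 on both surfaces, and Insig2 is the only gene called higher on nanotopography.

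On nanotopography, a trend with GC content ran through the comparison of co-culture with isolated cells across all genes. The median log2 fold change of all tested genes with under 40% GC in their longest transcript was 1.01, and that of genes over 60% GC was -1.34. On control titanium those medians were -0.25 and -0.19, with 0.09 in genes of 50 to 55% GC. The 34 genes span 41.9 to 59.1% GC, and over them the log2 fold change on nanotopography ran with GC content at a Pearson r of -0.83. On control titanium that r was 0.38. Both r are descriptions over genes that share the same libraries. Values are therefore given both TMM-scaled and GC-adjusted, with each library's trend on GC content and transcript length removed before the same edgeR test. Over the 34 genes the r with GC content was -0.23 on nanotopography and 0.29 on control titanium after the adjustment. Whether the trend comes from the cells or from library preparation was not tested.

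Sterol synthesis genes were lower in co-culture on nanotopography too. Of the 24 sterol genes, 17 fell, 1 rose and 6 were not called, and the GC-adjusted test called 18 lower and 1 higher. Among all tested genes, 30.4% were called lower and 28.7% higher, and 21.2% and 18.8% after GC adjustment. The median log2 fold change of the sterol branch was -0.60, and -0.61 GC-adjusted, against 0.00 for all tested genes by both. In the fatty acid branch 6 of 10 genes fell, 0 rose and the median was -0.46. GC-adjusted, 7 of 10 fell and the median was -0.45. All 3 co-culture libraries lay below all 3 isolated ones in 17 sterol and 6 fatty acid genes, against 32.9% of all tested genes.

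Mvk and Mvd, of the mevalonate steps, had the largest TMM-scaled falls of the 34 genes. Mvk had 4.68, 7.00 and 7.61 CPM in co-culture, against 32.7, 24.1 and 32.8 CPM in isolated cells, with a log2 fold change of -2.21 ± 0.19 (edgeR adjusted p = 9.38e-08). Its GC-adjusted value was -1.49 (adjusted p = 3.30e-07). Mvd had 2.70, 6.49 and 6.54 CPM in co-culture, against 20.1, 23.0 and 25.2 CPM in isolated cells, with a log2 fold change of -2.11 ± 0.23 (edgeR adjusted p = 1.25e-06) and -1.06 GC-adjusted (adjusted p = 4.11e-04). In both genes every co-culture library was below every isolated one. The 2 scalings were far apart for Pmvk, which was called at -1.01 ± 0.19 (edgeR adjusted p = 2.17e-04) and stood at -0.03 GC-adjusted (adjusted p = 0.901). Hmgcs1, of low GC content, had 179, 133 and 144 CPM in co-culture, against 108, 150 and 133 CPM in isolated cells, and was not called at 0.22 ± 0.14. Its GC-adjusted log2 fold change had the other sign, at -0.28 (adjusted p = 0.0186).

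Sqle, Acat2 and Fdps had similar values by both scalings. Sqle had 71.2, 81.8 and 72.0 CPM in co-culture, against 118, 113 and 122 CPM in isolated cells (log2 fold change -0.65 ± 0.10, edgeR adjusted p = 5.32e-05, and -0.74 GC-adjusted). Acat2 had 8.94, 9.80 and 9.58 CPM in co-culture, against 20.7, 18.8 and 19.9 CPM in isolated cells (-1.07 ± 0.16, edgeR adjusted p = 2.67e-05, and -0.97 GC-adjusted). Fdps had 3.41, 3.94 and 4.41 CPM in co-culture, against 10.3, 10.3 and 11.6 CPM in isolated cells (-1.45 ± 0.26, edgeR adjusted p = 1.42e-04, and -1.26 GC-adjusted). The libraries of these 3 genes did not overlap. Fdft1 was at -0.83 ± 0.13 with -0.57 GC-adjusted, Lss at -0.46 ± 0.13 with -0.66, Nsdhl at -0.56 ± 0.16 with -0.81, Msmo1 at -0.31 ± 0.10 with -0.65 and Dhcr7, the last reductase of a route to cholesterol, at -1.09 ± 0.13 with -0.71. All 5 were called lower by both.

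Some late enzymes were called by only 1 of the scalings. Cyp51, Hsd17b7, a sterol ketone reductase, and Sc5d, a sterol desaturase, were not called TMM-scaled, with log2 fold changes of -0.17, -0.34 and -0.03, and fell GC-adjusted, with -0.42, -0.86 and -0.64. Stard4 went the same way, at -0.22 TMM-scaled and -0.75 GC-adjusted. Tm7sf2 and Ebp were called TMM-scaled at -0.77 and -0.52, and not GC-adjusted, at -0.56 and -0.28. Idi1 was called by neither, at 0.37 ± 0.27 and -0.23 GC-adjusted.

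The SREBP genes were lower in co-culture on nanotopography, with GC-adjusted values nearer to 0. Srebf1 had 10.5, 16.8 and 17.2 CPM in co-culture, against 39.8, 27.5 and 35.0 CPM in isolated cells (log2 fold change -1.20 ± 0.18, edgeR adjusted p = 2.41e-05, and -0.36 GC-adjusted, adjusted p = 0.0246). Srebf2 had 97.3, 125 and 118 CPM in co-culture, against 231, 216 and 246 CPM in isolated cells (-1.02 ± 0.11, edgeR adjusted p = 1.70e-06, and -0.27 GC-adjusted, adjusted p = 0.0114). Scap was at -1.20 ± 0.18 TMM-scaled and at -0.28 GC-adjusted, where it was not called (adjusted p = 0.0975). Insig1 was called at -0.28 and, GC-adjusted, at -0.29. Insig2 stood apart as the 1 gene of the 34 that rose: it had 99.3, 102 and 103 CPM in co-culture, against 61.5, 59.4 and 54.8 CPM in isolated cells (0.79 ± 0.12, edgeR adjusted p = 4.74e-05, and 0.59 GC-adjusted, adjusted p = 2.24e-04).

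Fatty acid genes fell from the first step on. Fasn had 50.5, 78.9 and 77.7 CPM in co-culture, against 238, 204 and 245 CPM in isolated cells (log2 fold change -1.73 ± 0.17, edgeR adjusted p = 3.50e-07, and -1.10 GC-adjusted, adjusted p = 9.04e-08). Acly had 100, 116 and 110 CPM in co-culture, against 189, 171 and 185 CPM in isolated cells (-0.74 ± 0.11, edgeR adjusted p = 1.95e-05, and -0.50 GC-adjusted). Scd1 had 438, 402 and 383 CPM in co-culture, against 618, 593 and 639 CPM in isolated cells (-0.60 ± 0.09, edgeR adjusted p = 5.24e-05, and -0.85 GC-adjusted). In all 3 every co-culture library was below every isolated one. Fads2 was at -1.21 ± 0.12 with -0.69 GC-adjusted, Fads1 at -0.88 ± 0.12 with -0.57 and Scd2 at -0.33 ± 0.10 with -0.40, each called lower by both. Acaca was not called at -0.09 ± 0.11 and fell GC-adjusted, at -0.33. Acss2, Elovl5 and Elovl6 were called by neither: Elovl6 was at 0.44 ± 0.20 TMM-scaled and at -0.13 GC-adjusted.

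Of the sterol and fatty acid genes called TMM-scaled on nanotopography, 4 lost the call without a single library. Without replicate 1 or 3 of co-culture on nanotopography Tm7sf2 was not called (-0.63 and -0.68), and without replicate 3 neither Ebp (-0.44) nor Msmo1 (-0.27) was. Msmo1 was not called without isolated replicate 3 on nanotopography either (-0.22). The call of Insig1 was lost without any of 9 libraries (-0.29 to -0.22): all 3 of both co-culture groups, isolated replicates 2 and 3 on nanotopography and isolated replicate 3 on control titanium. Hsd17b7 was called without replicate 1 of co-culture (-0.54) or of isolated cells (-0.44) on nanotopography, and Hmgcs1 was called higher without isolated replicate 2 (0.36).

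**Figure D3:**
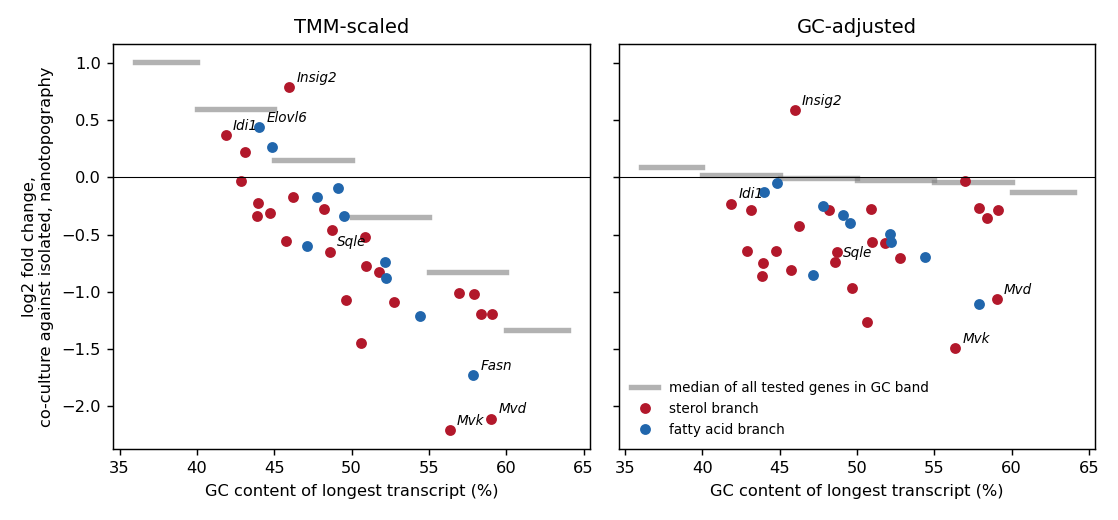
Log2 fold change between co-culture and isolated cells on nanotopography against the GC content of the longest transcript, for the 24 sterol genes and the 10 fatty acid genes, TMM-scaled (left) and GC-adjusted (right). Grey bars are medians of all tested genes per band of GC content, and the outer bands hold every gene under 40% and over 60%. The left panel slopes with a Pearson r of -0.83 over the 34 genes and the right with -0.23, where most genes lie below the grey bars.

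The groups compared on the 2 surfaces have no library in common. Both tests share an estimate of spread from all 12 libraries, so their calls are not independent. Both log2 fold changes were negative in 17 of 24 sterol genes and 6 of 10 fatty acid genes, and GC-adjusted in 19 and 7, against 26.4% of all tested genes and 30.3% GC-adjusted. Of the sterol genes, 7 were called lower on both surfaces: Acat2, Mvk, Fdps, Sqle, Msmo1, Nsdhl and Insig1. Among all tested genes 4.46% were called lower on both, and 6.01% GC-adjusted. A further 10 were called lower on nanotopography only and 4 on control titanium only. GC-adjusted, 11 sterol genes were called lower on both. Of the fatty acid genes, Scd1 and Fads2 were called lower on both, and GC-adjusted 5 were. The log2 fold change of Sqle was -0.65 on nanotopography and -0.61 on control titanium, and that of Nsdhl -0.56 and -0.58.

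**Figure D4:**
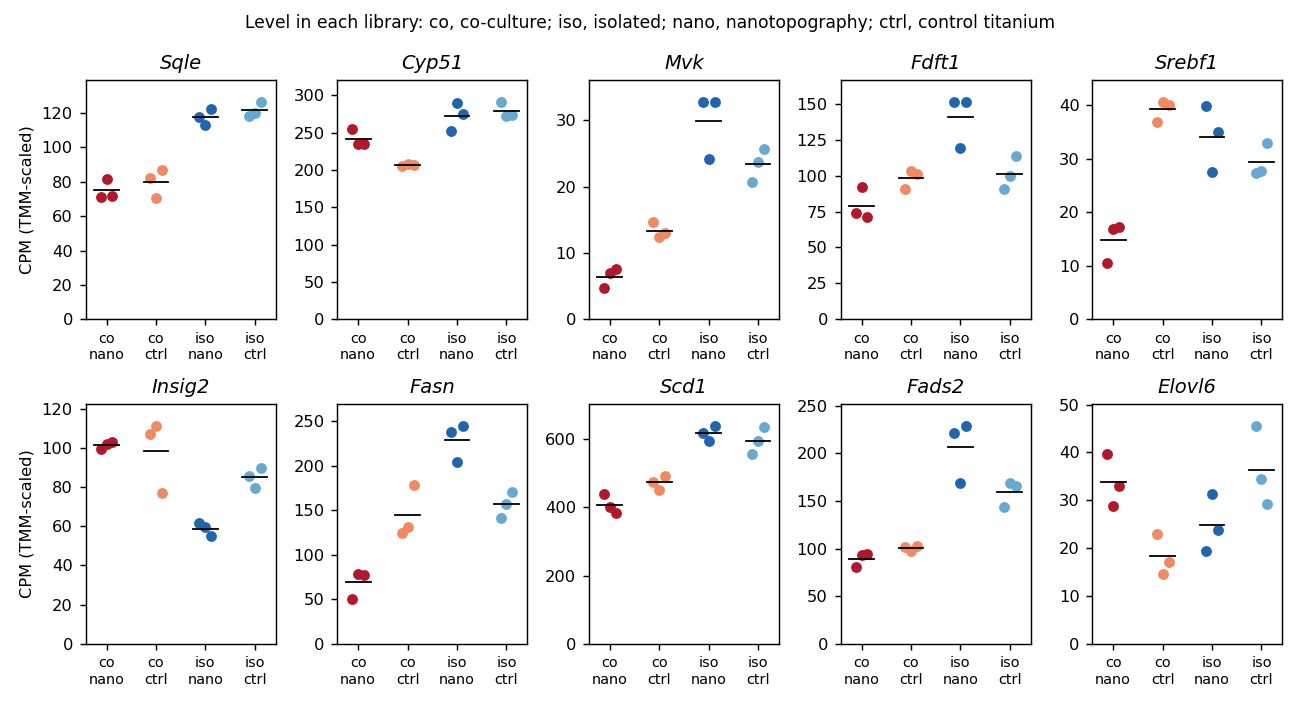
CPM in each of the 12 libraries for 10 of the genes, with a bar at each group's mean of 3 libraries, and axes that start at 0. Sqle, Scd1 and Fads2 are low in both co-culture groups, Mvk, Srebf1 and Fasn are lowest in co-culture on nanotopography, and Elovl6 is lowest in co-culture on control titanium.

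Whether co-culture acted differently on the 2 surfaces was tested as an interaction, positive where the co-culture effect was higher on nanotopography. It uses all 12 libraries and so shares them with both comparisons above. Of the 24 sterol genes, 9 had a lower and 3 a higher interaction, and 5 and 1 of the 10 fatty acid genes. Among all tested genes, 25.4% were called lower and 22.4% higher. GC-adjusted, 6 sterol genes were lower and 0 higher, 3 fatty acid genes were lower and 1 higher, and among all tested genes 13% were lower and 7.89% higher. Over the 34 genes the TMM-scaled interaction ran with GC content at a Pearson r of -0.90, and at -0.50 GC-adjusted.

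The genes called by both scalings with the same sign were Mvk, Mvd, Fdft1, Srebf1, Fasn and Scd2, with a lower co-culture effect on nanotopography, and Elovl6, with a higher one. Fasn had an interaction of -1.61 ± 0.23 (edgeR adjusted p = 1.22e-04) and -0.95 GC-adjusted (adjusted p = 2.32e-04): co-culture went with a low Fasn level on nanotopography, and on control titanium the libraries overlapped, at 125, 131 and 179 CPM in co-culture and 142, 157 and 171 CPM in isolated cells. Srebf1 had an interaction of -1.62 ± 0.24 (edgeR adjusted p = 1.52e-04) and -0.76 GC-adjusted (adjusted p = 0.00322). Mvd had -2.06 ± 0.31 (edgeR adjusted p = 1.69e-04) and -1.06 GC-adjusted (adjusted p = 0.0109). Elovl6 had 1.42 ± 0.29 (edgeR adjusted p = 0.00101) and 0.81 GC-adjusted (adjusted p = 0.0111). For Hmgcs1, Idi1, Pmvk, Srebf2, Scap, Dhcr7, Insig2, Acly, Fads1, Fads2 and Ebp the interaction was called TMM-scaled and not GC-adjusted. For Hsd17b7, Sc5d and Scd1 it was called GC-adjusted only, with -0.75, -0.50 and -0.49.

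The surface by itself was tested as nanotopography against control titanium in isolated cells. Of the 24 sterol genes 2 rose and 1 fell, and of the 10 fatty acid genes 1 rose and 0 fell. Among all tested genes 4.32% were called higher and 5.39% lower, and GC-adjusted 3.54% and 1.86%. A trend with GC content ran through this comparison too. The median log2 fold change of all tested genes was -0.57 under 40% GC and 0.28 over 60% GC. Over the 34 genes the log2 fold change ran with GC content at a Pearson r of 0.725, and at 0.27 GC-adjusted. Fdft1 had 151, 119 and 151 CPM on nanotopography, against 90.4, 99.6 and 114 CPM on control titanium (log2 fold change 0.47 ± 0.13, edgeR adjusted p = 0.0316, and 0.36 GC-adjusted). Ebp was at 0.51 ± 0.16 (edgeR adjusted p = 0.0492, and 0.41 GC-adjusted), Fasn at 0.55 ± 0.16 (edgeR adjusted p = 0.0415, and 0.34 GC-adjusted) and Insig2 at -0.53 ± 0.12 (edgeR adjusted p = 0.0226, and -0.44 GC-adjusted). All 4 were called by both scalings.

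None of these 4 calls on the surface survived the loss of every single library. Each was lost without isolated replicate 1 or 2 on control titanium or isolated replicate 1 or 3 on nanotopography: over these 4, Fdft1 ranged from 0.41 to 0.47, Ebp from 0.42 to 0.48, Fasn from 0.49 to 0.56 and Insig2 from -0.57 to -0.48. Ebp was also lost without any co-culture library on control titanium (0.50) or co-culture replicate 3 on nanotopography (0.50), and Fasn without co-culture replicate 2 on control titanium (0.54) or replicate 3 on nanotopography (0.54). Over all genes the count called ran from 3 without isolated replicate 1 on control titanium to 2877 without isolated replicate 2 on nanotopography.

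In co-culture, nanotopography against control titanium gave more calls, which share the co-culture libraries of the comparisons above. Of the 24 sterol genes 3 rose and 7 fell, with 0 and 6 GC-adjusted. Of the 10 fatty acid genes 2 rose and 3 fell by each scaling. Among all tested genes 18.6% were called higher and 23.3% lower, with 6.94% and 11.2% GC-adjusted. Over the 34 genes the log2 fold change ran with GC content at a Pearson r of -0.89, and at -0.47 GC-adjusted. The genes called lower by both scalings were Mvk, Mvd, Srebf1, Scap, Fasn and Scd2. Srebf1 had 10.5, 16.8 and 17.2 CPM on nanotopography, against 36.9, 40.7 and 40.1 CPM on control titanium, the largest gap among the SREBP genes (-1.40 ± 0.17, edgeR adjusted p = 3.34e-05, and -0.75 GC-adjusted, adjusted p = 3.24e-04). Elovl6 was the only gene called higher by both, at 0.87 ± 0.21 (edgeR adjusted p = 0.00364) and 0.53 GC-adjusted. Fads2, not called TMM-scaled at -0.17, was called higher GC-adjusted, at 0.25 (edgeR adjusted p = 0.0478). Called lower GC-adjusted only were Hsd17b7 at -0.42 (edgeR adjusted p = 0.0322), Sc5d at -0.27 (0.0477) and Scd1 at -0.35 (0.00546), whose TMM-scaled values were -0.10, 0.11 and -0.21.

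Calls of this comparison that did not hold without 1 library were those of Hmgcs1, Idi1, Nsdhl, Acaca and Fads1. Among the co-culture libraries, Hmgcs1 was lost without replicates 2 or 3 on control titanium or replicate 1 on nanotopography (0.28 to 0.42), Idi1 without replicates 1 or 2 on control titanium or any on nanotopography (0.51 to 0.77), and Nsdhl without replicates 1 or 2 on either surface (0.27 to 0.47). Fads1 was lost without any on control titanium or replicates 1 or 3 on nanotopography (-0.36 to -0.28), and Acaca whichever of the 12 libraries was left out (0.22 to 0.31). Idi1 was also lost without isolated replicates 1 or 2 on control titanium (0.72 in both), and Nsdhl without isolated replicate 2 on control titanium or 1 on nanotopography (0.43 in both). Over all genes, 3274 were called without replicate 1 of co-culture on nanotopography, against 5599 with it.

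Genes around the 2 pathways give the setting, to be read against the shares of all tested genes given above for each surface. Of 17 tested genes of SREBP processing and sterol-regulated degradation, 1 rose and 1 fell in co-culture on control titanium (3 and 1 GC-adjusted), with 6 and 5 on nanotopography (3 and 4 GC-adjusted). Erlin2, which helps degrade sterol-regulated proteins in the endoplasmic reticulum, was at 0.52 ± 0.11 on control titanium (edgeR adjusted p = 0.00279). Of 10 tested genes of LXR signalling, which answers excess sterol, 0 rose and 1 fell on control titanium (2 and 1 GC-adjusted), with 2 and 6 on nanotopography (3 and 3 GC-adjusted). The gene that fell TMM-scaled on control titanium was Lpcat3, an LXR target that puts polyunsaturated fatty acids into phospholipids, at -0.81 ± 0.14 on control titanium (edgeR adjusted p = 5.96e-04). It was also lower on nanotopography, at -1.30 ± 0.14 (edgeR adjusted p = 1.29e-06, and -0.91 GC-adjusted).

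Of 11 tested genes of lipoprotein uptake and lysosomal sterol export, 1 rose and 0 fell on control titanium (2 and 1 GC-adjusted), and 3 rose and 4 fell on nanotopography (2 and 4 GC-adjusted). Scarb1, a receptor for high-density lipoprotein, was at -0.92 ± 0.12 on nanotopography (edgeR adjusted p = 9.70e-06, and -0.91 GC-adjusted). Of 14 genes of the non-sterol branches of the mevalonate pathway, 0 rose and 1 fell on control titanium (1 and 1 GC-adjusted), with 5 and 6 on nanotopography (1 and 2 GC-adjusted). The TMM-scaled call on control titanium was Nus1, of dolichol synthesis, at -0.70 ± 0.17 (edgeR adjusted p = 0.00959), and it was not called without co-culture replicate 3 on control titanium (-0.56). Of 9 genes of NADPH and citrate supply, 1 rose and 1 fell on control titanium (4 and 2 GC-adjusted), with 1 and 7 on nanotopography (0 and 5 GC-adjusted). Idh1, a cytosolic source of NADPH, was at -0.69 ± 0.10 on control titanium (edgeR adjusted p = 9.38e-05), and Taldo1, of the pentose phosphate pathway, at -1.82 ± 0.16 on nanotopography (edgeR adjusted p = 1.78e-07, and -1.23 GC-adjusted).

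Of 17 other tested genes of fatty acid elongation and activation, 3 rose and 1 fell on control titanium (3 and 3 GC-adjusted), with 3 and 7 on nanotopography (1 and 7 GC-adjusted). Hsd17b12, of the elongation cycle, was the 1 gene that fell TMM-scaled on control titanium, where 3 rose. It was at -0.54 ± 0.12 there (edgeR adjusted p = 0.00355). Tecr, of the same cycle, was at -1.89 ± 0.14 on nanotopography (edgeR adjusted p = 3.14e-08, and -0.93 GC-adjusted). Among 18 tested genes of glycerolipid synthesis and lipid droplets, 4 rose and 0 fell on control titanium (4 and 1 GC-adjusted), with 5 and 8 on nanotopography (5 and 4 GC-adjusted). Lpin1, a phosphatidate phosphatase, rose on both surfaces, at 1.46 ± 0.11 on nanotopography (edgeR adjusted p = 4.72e-08, and 1.44 GC-adjusted) and at 1.65 ± 0.11 on control titanium (edgeR adjusted p = 5.47e-08). Soat1, which esterifies cholesterol for storage, was at 0.77 ± 0.09 on control titanium (edgeR adjusted p = 2.51e-05). Of 21 tested genes of fatty acid oxidation, 4 rose and 1 fell on control titanium (6 and 1 GC-adjusted), with 1 and 9 on nanotopography (1 and 7 GC-adjusted). Acads, a mitochondrial dehydrogenase, was at -1.67 ± 0.20 on nanotopography (edgeR adjusted p = 3.29e-06, and -0.57 GC-adjusted).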

How the data were processed

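The deposited files hold raw counts of reads per gene for 12 libraries. The submitters' processing notes list mm10 as build and cutadapt, STAR 2.4, HTSeq, FastQC 0.63 and DESeq2 as tools, with no role, annotation release or strand setting. Gene lists differed in length and 11 of 12 files broke off before the end of a line. Only the 52654 genes that all files gave whole were used, with 99.924% or more of the counts of any library, and each was found in GENCODE M21.

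The software was edgeR 4.0.16 and limma 3.58.1 under R 4.3.3. The 13340 genes passing edgeR's low-count filter by group were tested. Libraries were scaled by TMM (factors 0.9492 to 1.042), and quasi-likelihood tests on 4 group means over all 12 libraries gave 5 contrasts. The biological coefficient of variation was 12.3%. P-values were adjusted by Benjamini-Hochberg over all tested genes, and an adjusted p below 0.05 is a call. SE is approximate, from the fold change and its F value. CPM use TMM-scaled totals, except marker sums, which use plain totals. The log2 CPM scale used a prior count of 2. GC-adjusted tests used offsets from a loess fit (span 0.3) of each library's deviation on GC content and length of a gene's longest transcript.

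The members and lists were chosen with earlier results of these data known. Every one of the 34 genes is named, and from each other list at most the 2 genes with the smallest p per co-culture comparison. A gene that this rule names is not reported here. Alternatives were RLE scaling, no filter, CPM of at least 1 in 3 libraries, DESeq2 1.42.0, limma-voom, the compared groups alone, a replicate block, GC adjustment with and without the block, and leaving out each library. Leaving out libraries under GC adjustment was added after seeing the data. The tests were run on simulated counts only as a check of the code. P-values rest on the spread between the 3 libraries within groups, estimated for each gene over all 4 groups with information shared across genes.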

Additional observations from a re-analysis of the deposited data

Results flagged for a closer look

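The effect of co-culture differed between nanotopography and control titanium in 18 of the 34 genes. The call was an edgeR interaction test with an adjusted p below 0.05 over all 13340 tested genes. Among all tested genes, 25.4% were called lower and 22.4% higher, and 13% and 7.89% GC-adjusted. Over the 34 genes the interaction ran with GC content at a Pearson r of -0.90, and at -0.50 GC-adjusted. Values are log2 differences, with the GC-adjusted value after each.

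In the sterol branch the interaction was -1.41 for Mvk (-0.65 GC-adjusted), -2.06 for Mvd (-1.06), -0.79 for Fdft1 (-0.43) and -1.62 for Srebf1 (-0.76), each called by both. It was called TMM-scaled only for Pmvk at -1.17 (-0.14 GC-adjusted), Ebp at -0.74 (-0.45), Dhcr7 at -0.90 (-0.43), Srebf2 at -0.87 (-0.08) and Scap at -1.31 (-0.40). It was positive and TMM-scaled only for Hmgcs1 at 0.81 (0.22 GC-adjusted), Idi1 at 1.34 (0.60) and Insig2 at 0.57 (0.34).

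In the fatty acid branch it was -1.61 for Fasn (-0.95 GC-adjusted), -0.45 for Scd2 (-0.45) and 1.42 for Elovl6 (0.81), each called by both. It was called TMM-scaled only for Acly at -0.53 (-0.21 GC-adjusted), Fads1 at -0.67 (-0.25) and Fads2 at -0.54 (0.08, of the other sign). All 18 were called without each of the 12 libraries.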

How the results depend on the processing

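RLE scaling, the stricter filter and limma-voom each ended the call of 1 of the 93 changes of the 34 genes that were called TMM-scaled or GC-adjusted, DESeq2 of 2, dropping the filter of 3 and fitting the compared groups alone of 4 of 72 while adding 1, and none of these turned a direction. Changes called only GC-adjusted are among the 93 but had no TMM-scaled call to end. GC adjustment ended 20 and added 14 without turning their direction. It turned the direction of 7 more, and each of these gained or lost its call too.

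With GC adjustment, 6 fatty acid genes were called for co-culture on control titanium. Nanotopography in isolated cells had 720 genes called, and nanotopography in co-culture 2420, of them 6 sterol. The interaction had 2782, of them 6 sterol. Without the filter, nanotopography in isolated cells had 2100 genes called (5 sterol, 2 fatty acid), and by DESeq2 5 sterol and 4 fatty acid.

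Whether the replicate numbers pair the libraries was not settled: of 18 same-numbered pairs, 6 had a correlation of deviations over 0.1 (range -0.39 to 0.30), though 8 of 12 libraries correlated best with their own number. The replicate block alone ended 4 calls of the 93. The block with GC adjustment gave 5092 called genes for co-culture on nanotopography, 6 fatty acid genes for co-culture on control titanium, 518 genes (1 sterol) for nanotopography in isolated cells, 2144 (5 sterol) for nanotopography in co-culture and 2518 (6 sterol) for the interaction.

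The log2 fold changes that turned were, GC-adjusted and with the block added in brackets, Hmgcs1 at -0.28 (-0.28) in co-culture on nanotopography. For nanotopography in co-culture they were Pmvk at 0.029 (0.028), Sc5d at -0.27 (-0.27), Srebf2 at 0.058 (0.057) and Fads2 at 0.25 (0.25), and for the interaction Sc5d at -0.50 (-0.50) and Fads2 at 0.079 (0.083). The cause was not tested. Without 1 library, Sc5d ran from -0.14 to 0.067 for co-culture on nanotopography, and was above 0 without replicate 2 or 3 of co-culture there. For nanotopography in co-culture Sc5d ran from -0.0033, without replicate 1 of co-culture on nanotopography, to 0.18, and Hsd17b7 from -0.30 to 0.033, without replicate 2 of that group.

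Leaving out each library, TMM-scaled and GC-adjusted together, calls ran from 1436 to 3905 genes, 7 to 14 sterol and 2 to 6 fatty acid genes for co-culture on control titanium, and from 4268 to 8108, 14 to 20 and 6 to 8 on nanotopography. For nanotopography in isolated cells they ran from 3 to 2877, 0 to 7 and 0 to 5, and in co-culture from 1119 to 5944, 2 to 11 and 3 to 4. For the interaction they ran from 1815 to 6957, 4 to 13 and 4 to 6. With 3 libraries a group and levels under 10 CPM for Idi1, Fdps and Tm7sf2 in most libraries, small changes of these genes were not detectable.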
